A study of Mus musculus with 6 samples.

Results

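The genes described here encode the CDK9 kinase complex known as P-TEFb, the proteins that hold it inactive, and the factors that hold RNA polymerase II in a pause near the start of genes. They were chosen by symbol, 9 of the 55335 genes listed for each library: Cdk9, Ccnt1 and Ccnt2 of P-TEFb, Hexim1, Larp7 and Mepce of the inhibitory 7SK particle, Nelfb and Nelfe of the negative elongation factor NELF, and Supt5 of the pausing and elongation factor DSIF. All 9 were found, each under 1 gene identifier, and all 9 passed the filter on low values. RNA was measured in whole mouse 4-cell embryos, in 3 control libraries (Con) and 3 libraries of embryos that had been treated with DRB. DRB, an analogue of a nucleoside, inhibits CDK9 and so blocks elongation by RNA polymerase II. Treated zygotes were placed in 20 µM DRB in KSOM, an embryo culture medium, 6 h after fertilization, stayed there for 20 h, and were then washed and cultured without the inhibitor for 26 h more. The values are therefore those of embryos that had been released from the block, not of embryos under it. Whether Con embryos were given vehicle is not stated, nor are the mouse strain, the number of embryos pooled in a library or the times for which Con embryos were cultured.

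RNA polymerase II stops soon after it leaves many start sites, held by DSIF and NELF. P-TEFb, a pair of CDK9 with cyclin T1 or cyclin T2, phosphorylates DSIF, NELF and the tail of the polymerase, after which NELF leaves and elongation goes on. Much of the P-TEFb in a cell is kept inactive by HEXIM1 bound to the 7SK RNA, an RNA that MEPCE caps and LARP7 protects at its other end. HEXIM1 takes its name from its induction by the compound HMBA, which is also known to release P-TEFb from the 7SK particle. In the mouse the first wave of embryonic transcription begins in the zygote and the main wave follows at the 2-cell stage. The treatment began in the zygote, 6 h after fertilization, and lasted 20 h. How much of the main wave fell within it, and how much after the wash, is not given.

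By group means in Con embryos, Larp7 had the highest RNA level of the 9 genes and Hexim1 the lowest, both encoding 7SK proteins. Mepce, also of the 7SK particle, ranked 7, and the ranges of Nelfb and Hexim1 overlapped. After DRB and its removal, the mean of Hexim1 rose to 12.3 ± 3.08 FPKM, against 2.40 ± 0.96 FPKM in Con (SD, n = 3). FPKM scales sequenced fragments by the length of the gene model and by the library's total. Levels of different genes can be compared on it only roughly, since the gene models used are not given. None of the other 8 genes passed the test. Leaving out each of the 6 libraries in turn kept the log2 fold change of Hexim1 at 1.80 to 2.20, against 1.98 with all 6, but its call held in 1 of these 6 fits.

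Sequences are shown for the 7SK stretch that HEXIM1 recognises and for the start regions of Hexim1, Larp7 and Ccnt2. Hexim1 was the member called, though its call did not hold in all settings. Larp7 and Ccnt2 gave no call, and the start of each is the same in both annotations used. HEXIM1 binds the first hairpin of 7SK at paired GATC letters, GAUC in the RNA. The mouse 7SK gene, Rn7sk, lies on chromosome 9 (78175303 to 78175633, minus strand, GRCm38) and gives an RNA of 331 bases. Its first 100 bases, from the GENCODE M21 transcript and written as DNA, hold all 3 GATC matches of the RNA, here in capitals.
Rn7sk: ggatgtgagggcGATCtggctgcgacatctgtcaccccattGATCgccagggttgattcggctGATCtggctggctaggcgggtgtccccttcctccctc
The next 3 sequences are the 150 bases before the GENCODE start of each gene, 5′ to 3′ on the gene's own strand, cut from the RefSeq promoter table (GRCm38.p6): chr11:103116081-103116230 (plus strand) for Hexim1, chr3:127553350-127553499 (minus strand) for Larp7 and chr1:127774014-127774163 (plus strand) for Ccnt2. Capitals mark matches on either strand to TATAAA or TATATA (the TATA box, bound by the TATA-binding protein), to GGGCGG (the GC box) and to TGACGTCA (the cAMP response element).
Hexim1: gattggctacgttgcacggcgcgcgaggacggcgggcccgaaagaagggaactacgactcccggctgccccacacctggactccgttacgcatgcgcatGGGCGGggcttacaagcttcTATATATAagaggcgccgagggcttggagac
Larp7: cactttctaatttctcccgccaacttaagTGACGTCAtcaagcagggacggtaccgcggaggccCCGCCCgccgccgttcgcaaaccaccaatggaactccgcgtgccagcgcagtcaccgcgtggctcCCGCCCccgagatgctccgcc
Ccnt2: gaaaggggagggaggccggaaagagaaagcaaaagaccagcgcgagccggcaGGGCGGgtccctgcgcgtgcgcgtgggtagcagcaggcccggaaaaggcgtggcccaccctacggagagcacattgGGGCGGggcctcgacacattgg
In Hexim1 the TATATATA run lay 31 to 24 bases before the GENCODE start, and that start lies 94 bases before the RefSeq start. Among the 7 members found in the promoter table (Cdk9, Ccnt1, Ccnt2, Hexim1, Larp7, Nelfb and Supt5), 2 held a TATA match in the full window of 250 bases before to 50 bases after the RefSeq start, Hexim1 and Nelfb, against 17.1% of all 32851 promoters. A GC box match was found in 7 of the 7, against 35.7% of all promoters. The cAMP response element was found in 1, Larp7, against 1.8% of all promoters. These are matches of letters and were not tested as binding sites. The 32851 promoters were not limited to genes tested here, so their shares are no background of genes like the members.

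The genes differ in build. Hexim1 (ENSMUSG00000048878.6, chromosome 11, 103116231 to 103119725, plus strand) has 1 transcript with 1 exon of 3495 bases, and is the single member without an intron. The P-TEFb genes are Cdk9 (ENSMUSG00000009555.16, chromosome 2, 32705784 to 32713076), Ccnt1 (ENSMUSG00000011960.12, chromosome 15, 98538689 to 98570923) and Ccnt2 (ENSMUSG00000026349.14, chromosome 1, 127774164 to 127808061), whose longest exon chains hold 7, 10 and 10 exons. The other 7SK proteins are encoded by Larp7 (ENSMUSG00000027968.11, chromosome 3, 127536714 to 127553349), with up to 13 exons, and Mepce (ENSMUSG00000029726.16, chromosome 5, 137781906 to 137787655), with up to 4. Nelfb (ENSMUSG00000013465.19) spans bases 25199712 to 25211489 of chromosome 2 and Nelfe (ENSMUSG00000024369.16) bases 34850391 to 34856372 of chromosome 17, with up to 13 and 11 exons. Supt5 (ENSMUSG00000003435.9, chromosome 7, 28314891 to 28338746) has up to 31 exons. All positions are from GENCODE M21 on GRCm38, the assembly also called mm10.

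Depth was estimated from the steps in low FPKM values and came to 22000000 to 24800000 fragments per library, overlapping between the groups. Pairs of Con libraries correlated at 0.935 to 0.944 over log2 values of tested genes, pairs of DRB libraries at 0.909 to 0.937 and mixed pairs at 0.869 to 0.915 (Pearson), and DRB replicate 1 had the lowest mean r with the others, 0.891. The embryo label was checked against 10 oocyte and cleavage-stage genes, and all 10 were above 1 FPKM in some library. Dppa3, a maternal protein that guards DNA methylation, stood at 13434 to 24780 FPKM. The others were far lower, such as Zp3 at 22.15 to 42.06 FPKM, Zar1 at 0.8 to 2.42 FPKM and Ooep at 0.5 to 7.14 FPKM. Of 8 cumulus cell markers 6 stayed below 1 FPKM in every library, with Has2, Ptx3 and Fshr at 0 throughout, and the summed list, carried by Gja1 and Amhr2, was 213.0 to 387.1 FPKM in Con and 143.8 to 275.8 in DRB. The 8 sperm markers summed to 12.7 to 22.7 FPKM in Con and 12.5 to 24.2 in DRB, carried by Ldhc and Odf2. Of these, 5 stayed below 1 FPKM in every library, with Tnp2 at 0 throughout. The 8 blood cell markers summed to 77.2 to 120.9 FPKM in Con and 47.6 to 90.2 in DRB. Only 2 of them stayed below 1 FPKM in every library, and Hba-a1 stood at 24.8 to 68.87 and Hba-a2 at 13.52 to 38.27 FPKM. The part of these markers in the results was not tested.

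**Figure D1:**
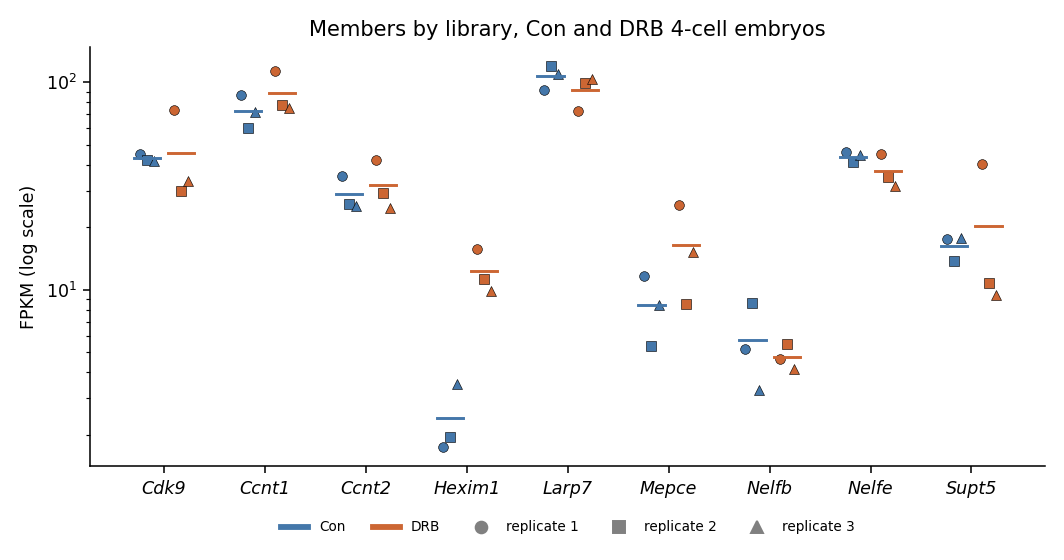
FPKM of the 9 genes in each library on a log axis, Con in blue and DRB in orange, with a symbol for each replicate number and a line at the mean of the 3 libraries. Hexim1 is the single gene whose DRB libraries all lie above its Con libraries; DRB replicate 1 lies above all other libraries for Cdk9, Ccnt1, Ccnt2, Hexim1, Mepce and Supt5.

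Cdk9 encodes the kinase that DRB inhibits. It stood at 45.2, 41.99 and 41.58 FPKM in Con replicates 1 to 3 and at 72.96, 29.7 and 33.44 FPKM in DRB replicates 1 to 3. The Con libraries lay close together, while DRB replicate 1 lay above all of them and DRB replicates 2 and 3 below all of them. The group means were thus nearly equal, 42.9 ± 1.98 and 45.4 ± 24.0 FPKM, but with a coefficient of variation of 4.6% in Con and 52.8% in DRB. The log2 fold change, DRB over Con on log2(FPKM + 1) as for all fold changes here, was -0.04 ± 0.36 (SE; limma adjusted p 0.97; 95% interval -0.83 to 0.76). Its sign was not stable: it was 0.06 with median-of-ratios scaling of the libraries and -0.43 without DRB replicate 1.

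Ccnt1, the cyclin found in most P-TEFb of many cell types, stood at 86.46, 60.23 and 71.58 FPKM in Con and 112.58, 77.14 and 75.39 FPKM in DRB. Both groups overlapped, with Con replicate 1 above DRB replicates 2 and 3. The log2 fold change was 0.27, with a 95% interval of -0.37 to 0.90 (limma adjusted p 0.687). Ccnt2, the alternative cyclin partner, stood at 35.42, 25.72 and 25.16 FPKM in Con and 42.22, 29.15 and 24.67 FPKM in DRB. Its highest and its lowest value were both in DRB libraries, and the log2 fold change was 0.13 (95% interval -0.58 to 0.85, limma adjusted p 0.883) and -0.08 without DRB replicate 1. The ratio of Ccnt1 to Ccnt2 was 2.44, 2.34 and 2.85 in Con and 2.67, 2.65 and 3.06 in DRB, overlapping between groups.

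Hexim1, the protein that blocks the active site of CDK9 when bound to 7SK, stood at 1.74, 1.96 and 3.5 FPKM in Con and 15.76, 11.2 and 9.89 FPKM in DRB. The lowest DRB library was above the highest Con library, and the ratio of the group means was 5.12. The log2 fold change was 1.98 ± 0.41 (SE, 95% interval 1.08 to 2.88) with a limma adjusted p of 0.0323, higher in 3 of 3 DRB libraries than in any Con library. Among the 9 members 1 was called, and 2.48% of the 11893 genes tested were called, 1.53% higher and 0.95% lower. At an unadjusted limma p below 0.05 there was also 1 of 9, against 18.1% of all tested genes. Non-overlapping groups were seen in 1 of 9 members, against 23.8% of all tested genes, so neither share sets the members apart from the rest. From the estimated depth, Hexim1 was read by about 134 to 256 fragments in each Con library and 819 to 1195 in each DRB library, counts whose sampling error is smaller than the spread between libraries, although reads after PCR are not independent molecules. In whole embryos a larger share of cells with the transcript and more transcript per cell cannot be told apart.

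The size of the Hexim1 difference moved little between settings, from 1.80 to 2.35 on the log2 scale, but its call did not hold in all. Leaving out 1 library gave limma adjusted p-values of 0.0478 to 0.109: 0.101, 0.109 and 0.0551 without Con replicates 1, 2 and 3, and 0.0915, 0.077 and 0.0478 without DRB replicates 1, 2 and 3. The call also ended with the replicate number as a block (adjusted p 0.0733) and with no filter on low values (adjusted p 0.189 over 27554 genes).

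**Figure D2:**
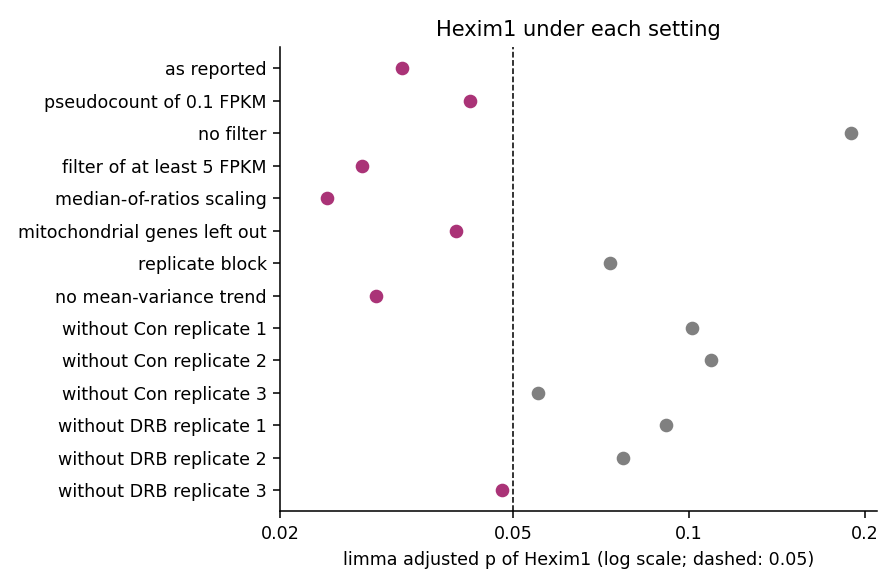
Benjamini-Hochberg adjusted p of Hexim1 from limma on a log axis, 1 point for each setting, with the threshold of 0.05 dashed. The settings that change scaling, pseudocount or trend lie at 0.024 to 0.0422, and 5 of the 6 that leave out a library lie above the threshold.

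The genes around Hexim1 were compared because a paralog lies beside it. Hexim2, which can also inhibit P-TEFb, starts 12704 bases downstream on the same strand. It was listed at 0.62, 0.02 and 1 FPKM in Con and 0.85, 0.36 and 1.15 FPKM in DRB, did not pass the filter, and overlapped between groups. The nearest gene upstream, Acbd4, a protein that binds acyl-CoA, was at 2.14, 0.28 and 0.8 FPKM in Con and at 0, 0 and 1 FPKM in DRB. Plcd3, a phospholipase C, was at 3.65 to 11.13 FPKM in Con and 3.48 to 5.75 in DRB. Nmt1, an enzyme that adds myristate to proteins, was at 8.91 to 15.44 FPKM in Con and 3.57 to 9.66 in DRB. Of the 9 genes within 100000 bases of Hexim1 that were matched to a value, 0 had every DRB library above every Con library.

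Larp7, the La-related protein that stabilises 7SK, was the most abundant member in Con at 91.4, 118.96 and 109.07 FPKM. In DRB it stood at 72.17, 99.28 and 103.74 FPKM, with DRB replicate 1 the lowest of the 6 and the other DRB libraries inside the Con range. The log2 fold change was -0.22 (95% interval -0.82 to 0.38, limma adjusted p 0.734). Mepce, the methyltransferase that caps 7SK, stood at 11.61, 5.35 and 8.41 FPKM in Con and 25.58, 8.53 and 15.23 FPKM in DRB. The DRB mean was 1.94 times the Con mean, but Con replicate 1 lay above DRB replicate 2. The log2 fold change was 0.82 ± 0.46 (SE, 95% interval -0.19 to 1.82, limma adjusted p 0.379), and 0.45 without DRB replicate 1.

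The 7SK RNA itself, Rn7sk, was listed at 58.15, 44.14 and 63.47 FPKM in Con and 90.75, 132.64 and 52.86 FPKM in DRB. DRB replicates 1 and 2 lay above all Con libraries and DRB replicate 3 inside their range (log2 fold change 0.65, limma adjusted p 0.37). 7SK ends in a short run of U and has no long poly(A) tail, and cDNA was primed here with oligo-dT, so these values are no measure of the amount of 7SK. Larp7 and Mepce were not called beside Hexim1. The interval of Mepce, -0.19 to 1.82, does not exclude a rise in it as well.

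Nelfb, a core NELF subunit, was low at 5.2, 8.63 and 3.29 FPKM in Con and 4.64, 5.46 and 4.15 FPKM in DRB. All 3 DRB values fell within the Con range (log2 fold change -0.15, 95% interval -1.10 to 0.80, limma adjusted p 0.899). Nelfe, the NELF subunit that binds RNA, stood at 45.78, 41.0 and 44.58 FPKM in Con and 44.96, 34.92 and 31.72 FPKM in DRB. DRB replicates 2 and 3 lay below the Con libraries and DRB replicate 1 among them (log2 fold change -0.24, 95% interval -0.87 to 0.39, limma adjusted p 0.72). Nelfb was below Nelfe in all 6 libraries, although both encode subunits of the same complex.

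Supt5, the large DSIF subunit and a substrate of P-TEFb, stood at 17.47, 13.78 and 17.67 FPKM in Con and 40.5, 10.81 and 9.4 FPKM in DRB. DRB replicate 1 was more than 2 times as high as any other library, and the other DRB libraries were below all Con libraries. The group means were 16.3 ± 2.19 and 20.2 ± 17.6 FPKM, and the log2 fold change was 0.00 ± 0.50 (SE, 95% interval -1.10 to 1.10, limma adjusted p 1). It was -0.64 without DRB replicate 1 (limma adjusted p 0.359). An annotated antisense gene, Gm44709, shares 433 exon bases with Supt5, or 7.5% of the Supt5 exon bases. Gm44709 was listed at 88.64, 160.36 and 154.47 FPKM in Con and 422.93, 124.57 and 111.84 FPKM in DRB, also highest in DRB replicate 1. Smart-Seq2 does not mark strand, so reads from the shared bases cannot be assigned to either gene, and the values of Supt5 are uncertain to that extent. Of the other members, Ccnt1 shares 695 exon bases with the antisense gene 9330020H09Rik, listed at 0.15 to 0.46 FPKM.

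**Figure D3:**
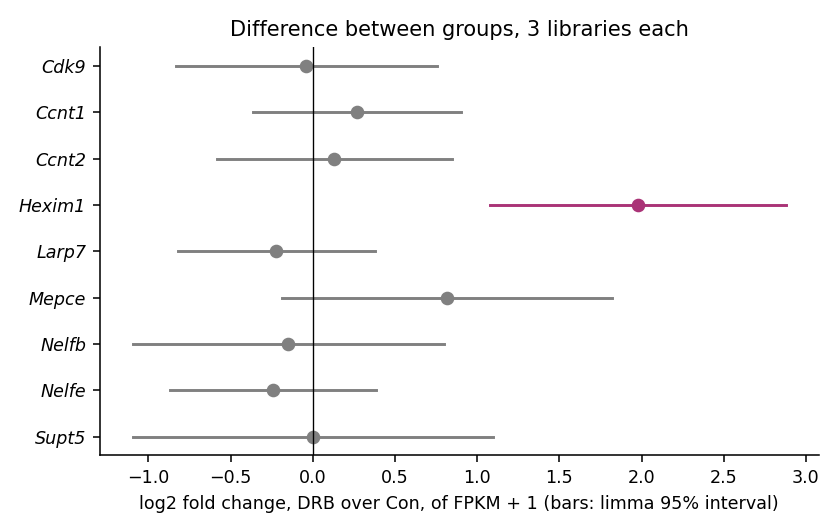
Log2 fold change of each gene, DRB over Con, on log2(FPKM + 1) from 3 libraries per group, with limma's 95% interval; Hexim1, the gene called, is in purple. The interval of Hexim1 runs from 1.08 to 2.88, and the other 8 intervals include 0, that of Ccnt1 being -0.37 to 0.90 and that of Supt5 -1.10 to 1.10.

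In Con the order of mean levels was Larp7, Ccnt1, Nelfe, Cdk9, Ccnt2, Supt5, Mepce, Nelfb and Hexim1, from 106.5 down to 2.40 FPKM. The ranges of neighbours did not overlap except between Nelfe and Cdk9, Mepce and Nelfb, and Nelfb and Hexim1. In DRB the order was Larp7, Ccnt1, Cdk9, Nelfe, Ccnt2, Supt5, Mepce, Hexim1 and Nelfb. There only Ccnt1 and Cdk9, and Hexim1 and Nelfb, had ranges that did not overlap. Hexim1 was above Nelfb in 3 of 3 DRB libraries, and Nelfb above Hexim1 in 2 of 3 Con libraries. Of the tested genes, 89.7% had a mean over all libraries below that of Larp7, 81.1% below that of Cdk9 and 48.5% below that of Hexim1.

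DRB replicate 1 was the highest of the 6 libraries for 6 of the 9 members, Cdk9, Ccnt1, Ccnt2, Hexim1, Mepce and Supt5, whereas it was the highest for 27.7% of all tested genes. DRB replicate 3 was the highest for 0 members and the lowest for 3, Ccnt2, Nelfe and Supt5, against 22.3% of all tested genes at their lowest there. Without DRB replicate 1, the log2 fold change of Hexim1 was 1.80 and no longer called (limma adjusted p 0.0915), and those of Cdk9, Ccnt2 and Supt5 were -0.43, -0.08 and -0.64. Without DRB replicate 3, that of Hexim1 was 2.11 (limma adjusted p 0.0478), and those of Cdk9, Ccnt2 and Supt5 were 0.12, 0.30 and 0.36. None of these 3 was called in either fit.

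Ratios between members within a library do not depend on how the library was scaled. Hexim1 stood at 0.0385, 0.0467 and 0.0842 of Cdk9 in Con and at 0.216, 0.377 and 0.296 in DRB, with no overlap, and the mean log2 ratio was 2.44 higher in DRB, or 5.42 times on the linear scale. By exact permutation of the libraries, two-sided, p was 0.1, which is the lowest value 3 libraries against 3 can give, and 0.267 adjusted over the 8 ratios compared. The ratio of Hexim1 to Larp7 was 0.019, 0.0165 and 0.0321 in Con and 0.218, 0.113 and 0.0953 in DRB, or 6.16 times as high (exact permutation p 0.1, adjusted 0.267). The ratio of Mepce to Cdk9 was 0.257, 0.127 and 0.202 in Con and 0.351, 0.287 and 0.455 in DRB, again with no overlap and 1.91 times as high (exact permutation p 0.1, adjusted 0.267). These 3 of the 8 ratios did not overlap between groups, and none can pass a threshold of 0.05 in this design. Those with Hexim1 as numerator are not separate from the difference in Hexim1 itself. Of single tested genes, 23.8% had groups without overlap, and no such share was computed for ratios of other gene pairs.

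The other 5 ratios overlapped between groups. The sum of both cyclins was 2.05 to 2.70 times the level of Cdk9 in Con and 2.12 to 3.58 times in DRB (exact permutation p 0.3, adjusted 0.48). The ratio of Larp7 to Cdk9 was 2.02 to 2.83 in Con, and 0.989, 3.34 and 3.10 in DRB, where DRB replicate 1 lay below and the other libraries above all Con libraries. Supt5 stood at 0.336 to 0.396 of Nelfe in Con and at 0.901, 0.310 and 0.296 in DRB, the same split of the DRB libraries in the other direction. Nelfb stood at 0.0738 to 0.211 of Nelfe in Con and 0.103 to 0.156 in DRB.

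**Figure D4:**
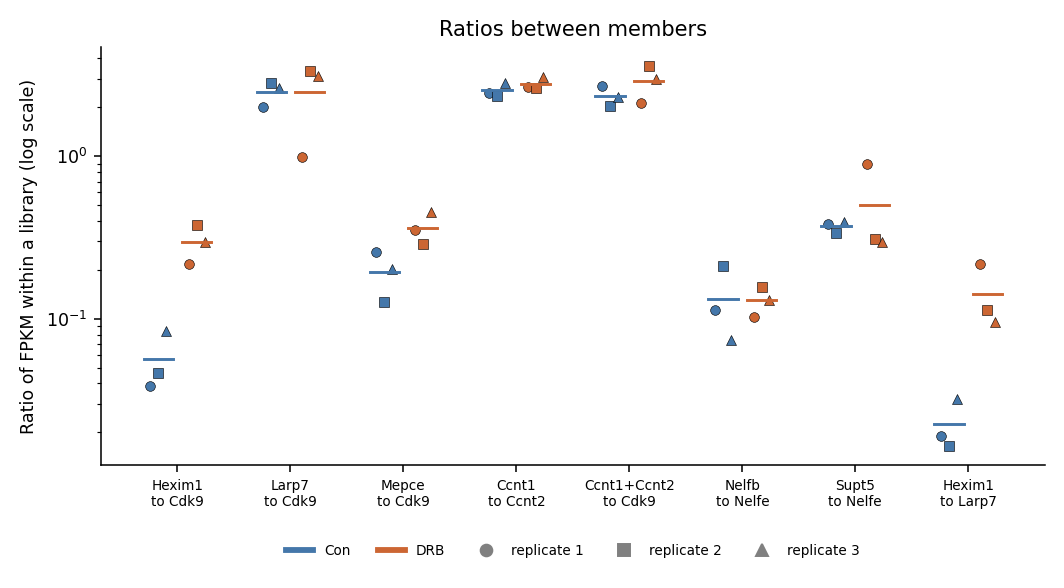
Ratios of FPKM between members within each library on a log axis, Con in blue and DRB in orange, with a symbol for each replicate number and a line at the mean of 3 libraries. Hexim1 to Cdk9, Mepce to Cdk9 and Hexim1 to Larp7 separate the groups; for Larp7 to Cdk9 and Supt5 to Nelfe, DRB replicate 1 lies apart from the other DRB libraries.

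Around P-TEFb, 70 further genes of elongation and its control were taken in 7 lists, of which 68 were tested and 0 called by limma. At an unadjusted limma p below 0.05, 6 were higher and 1 lower, against 7.53% and 10.5% of all tested genes. Without overlap between groups, 6 were higher and 7 lower, against 9.85% and 13.9%. The median log2 fold change was 0.01, beside -0.09 for all tested genes and 0.00 for the 9 members. The shares of the 68 thus lay near or below those of all genes.

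Of the other NELF and DSIF subunits, Supt4a, the small partner of Supt5, was at 2080 ± 357 FPKM in Con and 1979 ± 495 in DRB. Its near copy Supt4b was at 25.9 ± 2.24 and 25.2 ± 4.27 FPKM, and reads may be split between them. Nelfcd, another NELF subunit, was at 13.45 to 26.26 FPKM in Con and 8.94 to 13.13 in DRB without overlap (log2 fold change -0.65, limma adjusted p 0.385), and Nelfa at 14.4 ± 1.08 and 16.3 ± 5.99 FPKM. In the super elongation complex, which carries P-TEFb to genes, 0 of 8 tested genes had an unadjusted p below 0.05. Its most abundant genes were the elongation factor Ell2, at 71.2 ± 16.2 FPKM in Con and 58.6 ± 21.5 in DRB, and Aff4, a scaffold of the complex, at 14.8 ± 6.85 and 27.2 ± 9.95 FPKM (log2 fold change 0.86, limma adjusted p 0.296). Eaf2 did not pass the filter.

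Of 9 factors that free P-TEFb from 7SK or bind 7SK in its place, 2 were higher at an unadjusted p below 0.05. These were the splicing factors Srsf1 and Srsf2. The share of all tested genes was 7.53%, and 9 genes are too few to set apart from it. Srsf1 stood at 110.8, 144.69 and 154.68 FPKM in Con and 496.9, 236.04 and 183.56 FPKM in DRB (log2 fold change 1.03, limma adjusted p 0.157), without overlap. The most abundant of this list, Hnrnpa1 and Hnrnpa2b1, had log2 fold changes of -0.19 and 0.35. Of 12 genes of other transcription kinases and of casein kinase CK2, which DRB also inhibits, 1 was higher at an unadjusted p below 0.05. This was Cdk12, a kinase of the polymerase tail, at 12.39, 13.5 and 10.48 FPKM in Con and 38.97, 22.4 and 21.55 FPKM in DRB (log2 fold change 1.08, limma adjusted p 0.132). Csnk2b, a CK2 subunit, and Ccnc, the cyclin of the Mediator kinase, were the most abundant and stood at log2 fold changes of 0.15 and -0.30.

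In the PAF1 complex and elongation factors 0 of 15 were higher and 1 was lower at an unadjusted p below 0.05. Wdr61, a subunit shared by the PAF1 and SKI complexes, stood at 246.77, 277.3 and 220.32 FPKM in Con and 78.12, 147.98 and 149.64 FPKM in DRB, without overlap (log2 fold change -1.03, limma adjusted p 0.103). Eloc and Elob, of the Elongin complex, were the most abundant and stood at log2 fold changes of -0.29 and -0.11. Of 19 Integrator subunits, phosphatases of the polymerase tail and termination factors, 3 were higher at an unadjusted p below 0.05 and 0 lower. Without overlap, 3 were higher and 4 lower. The shares of all tested genes were 7.53% and 10.5% by unadjusted p, and 9.85% and 13.9% without overlap. Ints6, the Integrator subunit that binds the phosphatase PP2A, stood at 20.09, 12.88 and 24.19 FPKM in Con and 57.1, 40.06 and 45.86 FPKM in DRB (log2 fold change 1.31 ± 0.33 SE, limma adjusted p 0.0657). It was called with a filter of 5 FPKM (adjusted p 0.0484) and with median-of-ratios scaling (adjusted p 0.0473). Pcf11, a cleavage and termination factor, stood at 8.62, 7.97 and 10.47 FPKM in Con and 23.73, 21.37 and 23.53 FPKM in DRB (log2 fold change 1.26 ± 0.33 SE, limma adjusted p 0.0689). Ssu72, a phosphatase of the polymerase tail, and Ints8 were the most abundant of this list, with log2 fold changes of -0.48 and 0.53.

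**Figure D5:**
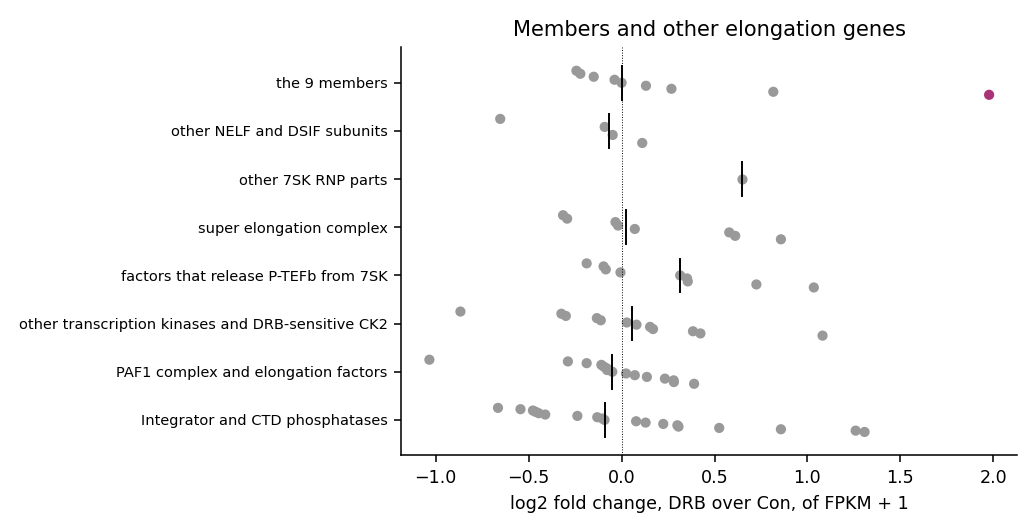
Log2 fold change, DRB over Con, on log2(FPKM + 1), 1 point for each tested gene, for the 9 members and the 7 lists of other elongation genes; black lines mark the median of a list and purple the called gene. Hexim1, at 1.98, lies to the right of all other points, and the next are Ints6 and Pcf11 at 1.31 and 1.26.

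Tested genes were ranked by the Euclidean distance of their centred log2(FPKM + 1) profile over the 6 libraries to that of Hexim1. Genes with model or clone names and pseudogenes were left out of this ranking. Among the 5 nearest of the rest were Chit1, Ing2, Cdkn2aip and Crabp2, at distances of 0.557 to 0.622. Their Pearson's r with Hexim1 was 0.975 to 0.995, given as a description over 6 libraries in which much of the likeness is the step between groups; 3.2% of tested genes had an r of at least 0.9. Chit1, a chitinase, was at 0 to 0.23 FPKM in Con and 1.82 to 4.06 in DRB, and Crabp2, which binds retinoic acid, at 0 to 1.05 and 2.03 to 4.49. Ing2, a reader of histone methylation, and Cdkn2aip, a protein that binds ARF, lie near each other on chromosome 8 (47667178 to 47675556 and 47709344 to 47713932). Ing2 stood at 3.77, 4.92 and 5.94 FPKM in Con and 19.96, 15.12 and 14.01 in DRB, and Cdkn2aip at 6.82, 8.06 and 11.21 and 30.69, 28.83 and 21.34. In limma's test over all genes Chit1 and Cdkn2aip were called (adjusted p 0.0323 and 0.045), and Ing2 and Crabp2 were not (adjusted p 0.0537 and 0.0844). These genes were picked for their likeness to Hexim1 in the same 6 libraries, so their higher level in DRB follows from that choice.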

How the data were processed

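Libraries were made from mouse 4-cell embryos with Smart-Seq2 and sequenced as paired ends, per the labels' protocols. Cutadapt 1.16, STAR and the mm10 build are named in the submitters' processing notes. Each deposited file lists FPKM for its library, per the file headers. Not given in the sources used here are the tool with which the authors computed them and its annotation release. FPKM depends on the library total, so abundant transcripts lower the rest. Low values of genes with 1 transcript moved in steps of 1 fragment once 155 to 185 bases were taken off the length. Depth and bases taken off were chosen to put most values within 0.15 of a whole number, 73.7% to 81.6%. Chance gives 30% for a setting fixed beforehand, and more for the best of many settings.

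The filter kept genes that reached 1 FPKM in 3 or more libraries. Values were transformed as log2(FPKM + 1) and fitted with limma (version 3.58.1, R 4.3.3), using the group alone as a term and a mean-variance trend. P-values are two-sided and Benjamini-Hochberg adjusted over all 11893 genes, called below 0.05. Since nothing ties the replicates to separate cultures, the p-values cover only the variation among these libraries, some of which may be technical. In simulated data, simulated log2 changes of 1, 2, 3 and 4 were recovered for 2.4%, 44.8%, 73.2% and 90.8% of the changed genes. Ratios were compared by exact permutation. The members, lists and tests were chosen with earlier results of these data known. All members were named. Each other list was named by its called genes and its 2 most abundant. The 5 nearest profiles of Hexim1 were named by distance, with model names, clone names and pseudogenes left out. Nelfa, Nelfcd, Eaf2, Srsf1, Srsf2, Cdk12, Wdr61, Ints6, Pcf11 and the neighbours of Hexim1 were chosen outside this rule. 1 gene of the lists and 1 of the 5 nearest profiles are not reported here, and the former was left out of the list counts. Python 3.11.15 with pandas 2.3.3 was used.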

Additional observations from a re-analysis of the deposited data

How the results depend on the processing

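The direction of Hexim1 held in all 13 alternatives, and its call in 6 of them. Among the 9 members the count called was 1 as reported and 0 with no filter, with the replicate block and at an adjusted p below 0.01, and 0 to 1 without 1 library; it was 1 with the other alternatives. Over all genes 295 were called, 164 with a pseudocount of 0.1 FPKM, 6 with no filter, 171 with the replicate block, 50 at an adjusted p below 0.01, and 47 to 220 without 1 library, lowest without DRB replicate 1. Of the other elongation genes 0 were called, and 1, Ints6, with a filter of at least 5 FPKM and with median-of-ratios scaling. Deviations of libraries with the same replicate number correlated at -0.051 to 0.053, so the numbers show no pairing. Signs turned for uncalled values near 0. The log2 fold change of Cdk9 was 0.064 with median-of-ratios scaling and 0.093 with mitochondrial genes left out, and that of Supt5 was -0.014 with a pseudocount of 0.1 FPKM. Without 1 library, Cdk9 ranged from -0.433 to 0.201, Ccnt2 from -0.081 to 0.295, Nelfb from -0.433 to 0.151 and Supt5 from -0.635 to 0.363. Of the log2 ratio differences without 1 library, Larp7 to Cdk9 ranged from -0.49 to 0.38, Nelfb to Nelfe from -0.27 to 0.49 and Supt5 to Nelfe from -0.29 to 0.51. The cause was not tested. With 3 libraries per group, most changes of 1 on the log2 scale are missed, so the members without a call are bounded only by their intervals.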

Other observations

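Hexim1 is a gene with 1 exon, and protein-coding genes were split by that feature after its value was seen. Of 220 tested protein-coding genes with 1 exon, 13 were higher and 0 lower in DRB by limma at an adjusted p below 0.05, or 5.91% and 0%, with a median log2 fold change of 0.25. Of 9022 with more than 1 exon, 85 were higher and 81 lower, or 0.94% and 0.9%, with a median of -0.11. The 13 included Hexim1, the immediate early gene Ier5 (log2 fold change 2.18), the ciliary transport gene Ttc30b (2.88), the testis transcription factor Spz1 (2.42), the hair keratin-associated gene Krtap4-13 (2.76) and the taste receptor Tas2r107 (2.31). The other 7 carry model names (Gm), and Gm16381 and Gm2001 had the same value in every library, so reads of copies were not told apart there and the 13 are not 13 independent genes. The difference between the gene classes was not tested.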
